A study of Mus musculus with 15 samples.

Results

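The genes described here are 6 mouse genes whose products sit in the surface membrane of basophils and mast cells: Fcer1a, Ms4a2 and Fcer1g, the alpha, beta and gamma chains of the high-affinity IgE receptor, Il1rl1 (ST2, the receptor for IL-33), Il18r1 (the ligand-binding chain of the IL-18 receptor) and Cd200r3, an activating member of the CD200 receptor family. They were found by symbol in the gene tables and make up 6 of the 20723 genes that the tables hold together. All 6 are listed in both tables with temozolomide (TMZ) libraries, and 5 in each table of untreated libraries, which do not list Fcer1a. They were chosen for their levels in 36N cells with TMZ, so those levels are a description and carry no test.

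Gene expression was measured by RNA sequencing of total bone marrow from leukemic C57BL/6 mice, in 15 libraries that form 5 groups of 3. Group 36N with TMZ (libraries 4 to 6) and group 36S with TMZ (libraries 1 to 3) were leukemic marrow cells exposed to 50 µg/ml of TMZ, a drug that methylates DNA, for 20 h before RNA was isolated. The untreated groups were KD (libraries 7 to 9), 36N (libraries 4 to 6) and 36S (libraries 1 to 3). In all 5 groups, the 36S controls included, the human GFI1 gene stood in place of the mouse one; 36N carried its 36N variant, KD expressed it at a low level, and 36S carried its wild-type form. Reads of the mouse Gfi1 gene do not check these labels, since the alleles carry the human gene. Every leukemia came from lineage-depleted donor marrow transduced with a retrovirus that carried the MLL-AF9 fusion and GFP. GFP-positive cells were sorted and given to mice irradiated with 7 and 3 Gy. The marrow of these mice was then passed serially through mice irradiated with 3 Gy, and that of the quaternary recipients was sequenced. Total marrow also holds cells of the irradiated host, and the sources used here leave unstated whether mice of 1 group trace back to 1 leukemia. P-values therefore measure the spread between these samples only.

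The IgE receptor is built on mast cells and basophils from an alpha chain that binds IgE, a beta chain that amplifies the signal and a pair of gamma chains that pass it on through tyrosine-based motifs. The gamma chain is not particular to this receptor, since Fc receptors for IgG and several lectins of myeloid cells use it too. ST2 and the IL-18 receptor belong to the IL-1 receptor family, pair with accessory chains (Il1rap and Il18rap) and signal through MyD88. CD200R3 signals through the adaptor DAP12, which Tyrobp encodes. GATA factors are known to control several genes of mast cells and basophils.

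By position, Fcer1a (mm10 chromosome 1, 173221284 to 173227214) and Fcer1g (chromosome 1, 171229572 to 171234365) lie on the minus strand, as does Ms4a2 (chromosome 19, 11615523 to 11623719). Cd200r3 (chromosome 16, 44943678 to 44981380) lies on the plus strand. Il1rl1 (chromosome 1, 40429570 to 40465415) and Il18r1 (chromosome 1, 40465552 to 40500854) are next to each other on the plus strand, in a run of receptor genes that ends with Il18rap (40515362 to 40551705). All are protein-coding in the GENCODE M21 annotation. The counting of the deposited data is not stated to use strand, and the Il18r1 start lies close to the Il1rl1 end, so reads at that border could be shared.

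The 250 bases before the transcription start are shown for 5 genes, because the GATA transcription factor genes are described with them below. Capitals mark the 6 letters of a GATA motif, which are GATA with A or T before it and A or G after it, on either strand, and each sequence runs 5′ to 3′ on the strand of its gene, from RefSeq on GRCm38.p6. The windows are Fcer1a at chr1:173227230-173227479 on the minus strand, Ms4a2 at chr19:11623720-11623969 on the minus strand, Il1rl1 at chr1:40429320-40429569 on the plus strand, Cd200r3 at chr16:44943428-44943677 on the plus strand and Fcer1g at chr1:171234350-171234599 on the minus strand.
Fcer1a: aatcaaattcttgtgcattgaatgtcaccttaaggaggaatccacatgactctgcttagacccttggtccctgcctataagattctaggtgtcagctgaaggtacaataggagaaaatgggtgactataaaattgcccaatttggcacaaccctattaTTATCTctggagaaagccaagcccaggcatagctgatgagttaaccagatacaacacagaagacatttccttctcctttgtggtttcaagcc
Ms4a2: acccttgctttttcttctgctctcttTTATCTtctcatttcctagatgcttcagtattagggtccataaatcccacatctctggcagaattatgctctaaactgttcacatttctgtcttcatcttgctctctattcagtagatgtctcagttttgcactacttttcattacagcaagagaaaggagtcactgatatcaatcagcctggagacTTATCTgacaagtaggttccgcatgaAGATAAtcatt
Il1rl1: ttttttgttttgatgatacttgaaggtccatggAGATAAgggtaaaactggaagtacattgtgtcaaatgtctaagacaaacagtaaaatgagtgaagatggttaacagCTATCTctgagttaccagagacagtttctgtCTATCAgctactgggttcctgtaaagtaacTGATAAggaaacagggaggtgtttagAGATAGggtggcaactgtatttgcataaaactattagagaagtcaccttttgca
Cd200r3: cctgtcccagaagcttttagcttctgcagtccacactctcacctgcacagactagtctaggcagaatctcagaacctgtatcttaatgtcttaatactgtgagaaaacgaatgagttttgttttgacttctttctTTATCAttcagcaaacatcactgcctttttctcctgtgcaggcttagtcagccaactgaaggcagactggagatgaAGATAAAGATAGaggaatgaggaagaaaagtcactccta
Fcer1g: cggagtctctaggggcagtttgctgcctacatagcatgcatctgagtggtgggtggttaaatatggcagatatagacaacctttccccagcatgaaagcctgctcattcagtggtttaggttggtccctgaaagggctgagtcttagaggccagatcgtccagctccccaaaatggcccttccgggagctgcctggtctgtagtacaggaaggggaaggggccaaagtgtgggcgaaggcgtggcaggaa

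The window of Il1rl1 held 5 matches, those of Ms4a2 and Cd200r3 held 3 each, that of Fcer1a held 1 and that of Fcer1g held 0. The nearest match began 11 bases before the start of Ms4a2 and 33 bases before that of Cd200r3. A second RefSeq start of Il1rl1 had 1 match in its window, and the 3 RefSeq starts of Il18r1 had 0. Of 32851 mouse promoter windows of this length, 26.5% held at least 1 match, 6.40% at least 2 and 1.35% at least 3. The letters AAATCAC, as in sites bound by GFI1, were in none of the 5 windows shown and in 2.75% of all windows, and the second Il1rl1 start held 1 match. The other motifs searched were TGTGGT of RUNX factors (in 14.0% of all windows) and GAGGAA of PU.1 (23.3%), both with a match in the Fcer1a window, and for PU.1 also 2 in that of Cd200r3. The second Il1rl1 start held 1 RUNX match, and the third Il18r1 start held 1 PU.1 match. The STAT letters TTCNNNGAA (7.02%) were in none of the 5 and had 2 matches at the third Il18r1 start. The E-box was searched as CATGTG or CACGTG (17.6% for either), with 1 match in the Fcer1a window and 1 at the first Il18r1 start. Matches are a description of letters and not of binding, and letters that are missing from a window say nothing of the factor.

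In 36N cells with TMZ the alpha chain, the beta chain and ST2 were among the abundant transcripts, while untreated 36N cells held them at or near 0. Fcer1a was at 6202, 18388 and 20376 normalized counts in TMZ libraries 4, 5 and 6, and it was listed at 0 in all 3 untreated 36N libraries. A fold against a group listed at 0 cannot be given, and the fitted log2 value of Fcer1a depends on the added constant. Fcer1a thus separated the groups completely, with the lowest TMZ level in library 4. In bulk marrow, more cells of a type and more RNA per cell cannot be told apart, here or in the results that follow.

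Ms4a2 was at 7978, 16793 and 17234 normalized counts with TMZ, against 16.0, 20.1 and 2.21 in untreated 36N libraries 4, 5 and 6. The means were 14001 ± 5221 and 12.7 ± 9.35 (SD, n = 3 each), a ratio of means of 1099. The log2 fold change was 10.30 (SE 0.69) on the scale of log2(value + 1), where the added constant shrinks changes of genes near 0. That fitted value still equals 1263 times, above the ratio of means, since it compares means of logs. The lowest library with TMZ stood 398 times above the highest untreated one. Without untreated library 6, the lowest of all, the log2 fold change was 9.45. Library 4 was again the lowest with TMZ.

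Fcer1g, the gamma chain, behaved differently from the other chains. It was at 2824, 2887 and 6788 normalized counts in 36N cells with TMZ, against 6921, 6675 and 7638 in untreated 36N cells. The ratio of means was 0.589 (log2 fold change -0.89, SE 0.32), and the groups overlapped, since TMZ library 6 lay above untreated library 5. Cells without TMZ thus held the gamma chain transcript at a high level with no alpha chain listed and little beta chain.

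Il1rl1 was at 10388, 19144 and 18245 normalized counts in 36N cells with TMZ, against 8.18, 13.2 and 13.9 in untreated 36N cells. The ratio of means was 1356 (log2 fold change 10.27, SE 0.29), and the lowest TMZ library was 748 times above the highest untreated one. Il1rl1 gives rise to a membrane receptor and a soluble form, which values per gene do not separate.

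Il18r1 was at 344, 461 and 732 normalized counts with TMZ, against 6.80, 21.6 and 9.58 in untreated 36N cells, a ratio of means of 40.5 (log2 fold change 5.31, SE 0.46). Cd200r3 was at 6584, 11469 and 19045 with TMZ, against 373, 478 and 607 in untreated 36N cells, a ratio of means of 25.4 (log2 fold change 4.56, SE 0.37). Neither gene overlapped between the groups. Cd200r3 differs from the other non-overlapping genes in that the untreated cells already held it at 373 to 607 normalized counts.

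The size of the Cd200r3 difference depends on the scaling in the deposited tables. The 6 libraries of this table are also in other tables, and the ratio between a library's values in 2 tables differed from gene to gene. For Cd200r3 that ratio, divided by the median over genes, was 1.32 in the TMZ libraries and 0.748 in the untreated ones, so the 2 conditions stood 1.77 times further apart in this table than in the others. For Il18r1 they stood 0.728 times as far apart, and for Ms4a2, Fcer1g and Il1rl1 the factor was 0.908, 0.946 and 0.935. Over 9438 genes, 27.8% moved by more than 1.5 times. All comparisons are therefore made within a table.

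All 6 genes were past an adjusted p of 0.05 in this fit, as were 69.7% of the 14390 genes tested, and 5 of the 6 did not overlap, as 74.5% of all genes did. The genes were chosen on this contrast, so nothing is read from these counts. Fcer1a passed the filter on low values through the TMZ libraries alone, so it had to differ. Ms4a2, Il1rl1 and Il18r1 would not have passed it without the TMZ libraries either, so their changes carry no test. The call of Fcer1g was lost without the trend in the variance and when any single library other than TMZ library 6 was left out.

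**Figure D1:**
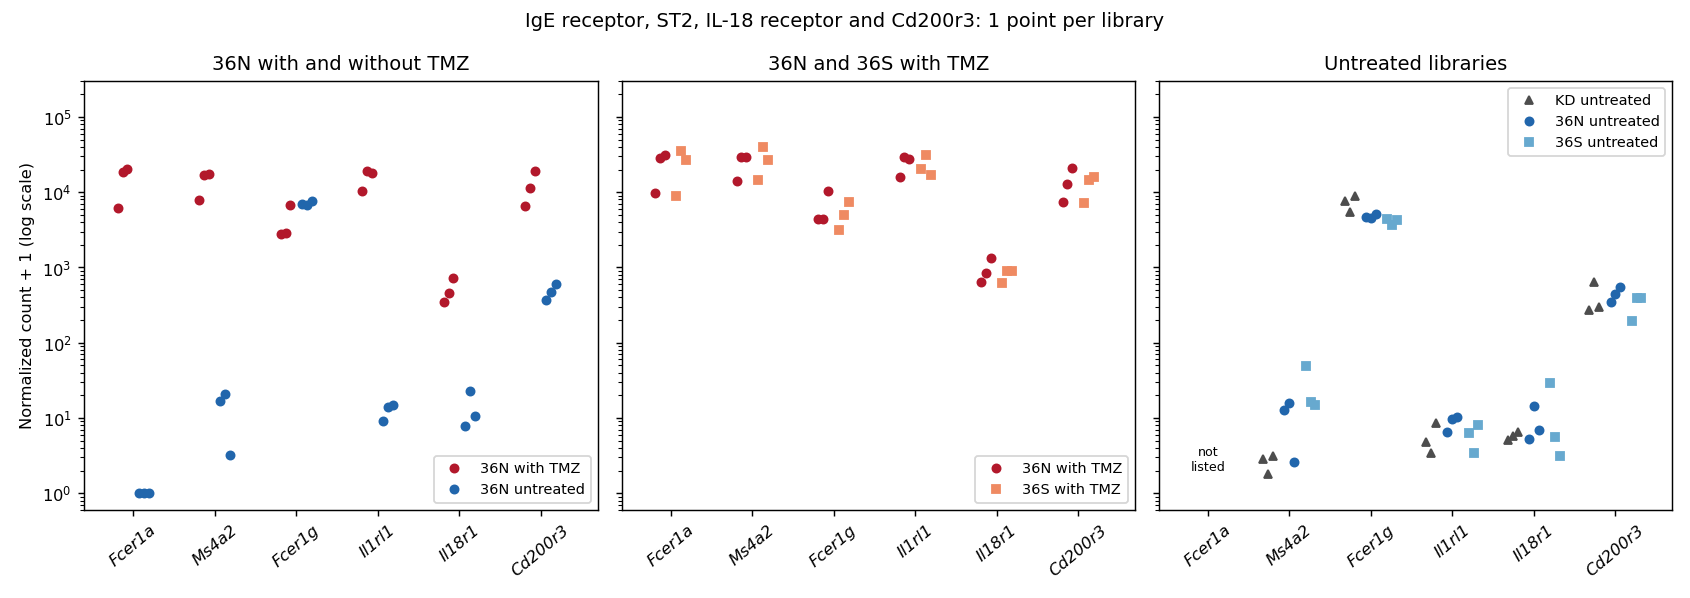
Normalized count plus 1 of each gene on a log axis, with 1 point per library and the library number running left to right within a group; left, 36N with TMZ and untreated; middle, 36N and 36S with TMZ; right, untreated KD, 36N and 36S. In the left panel 5 genes are separated with TMZ high, and Fcer1g overlaps; in the middle panel every gene overlaps; values are comparable within a panel only.

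Markers of several cell types moved with these genes. In 36N cells with TMZ the summed basophil markers (5 genes, led by Mcpt8 and Prss34) ran from 25967 to 113006 normalized counts, against 80.6 to 173 in untreated 36N cells. The mast cell markers (8 listed of 9, led by Cpa3) summed to 63911 to 141984 with TMZ, against 336 to 1180 untreated, with Mrgprb2 near 0 in both. The eosinophil markers (6 genes) summed to 1203 to 4749 with TMZ, against 263 to 528 untreated. In the basophil list Ptgdr2 stayed under 10 in every library with TMZ.

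Other lineages moved as well. Megakaryocyte markers (5 genes) summed to 28899 to 56717 normalized counts with TMZ, against 33.5 to 65.2 in untreated 36N cells. Erythroid markers (5 genes) summed to 450 to 632 with TMZ, against 12.1 to 216 untreated. Leukemic progenitor markers (4 genes) summed to 19520.5 to 53001 with TMZ, against 42209 to 50039 untreated. Of these 4, 3 fell: Elane (log2 fold change -3.32), Hoxa9 (-2.07) and Meis1 (-0.76). Neutrophil markers (6 genes) summed to 1421 to 17935 with TMZ, against 8987 to 21585 untreated. Ly6g rose (5.24), while Camp (-4.47) and S100a8 (-2.21) fell. Ly6g would not have passed the filter without the TMZ libraries, so its change carries no test. Monocyte markers (6 genes) summed to 11159 to 22413 with TMZ, against 83740 to 85829 untreated. Most of the untreated sum was F13a1 and Ly6c2, which fell (log2 fold change -4.70 and -3.24). Of the 6 genes only 3 fell past the threshold, Csf1r being the third (-1.51), while Adgre1 rose (1.29). B cell markers (6 genes) summed to 214 to 504 with TMZ, against 5645 to 10125. The markers of group 2 innate lymphoid cells, which also carry ST2, summed to 310 to 846 with TMZ (5 listed of 6 genes), against 59.9 to 142 untreated, and Il7r among them rose by 3.42 on the log2 scale. T and NK cell markers (9 genes) summed to 449 to 796 with TMZ, against 300 to 380 untreated. In that list Nkg7 rose to 639 ± 170, against 47.4 ± 9.09 (log2 fold change 3.71), while 7 of the 9 were under 10 in every library with TMZ and Cd3e was listed at 0 there. The labels do not say whether the untreated cells were kept in culture as the TMZ cells were, so the drug and the handling cannot be told apart. The part of cell composition in these differences was not tested.

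The partners of these receptors were read from the same fit, from lists drawn up for this description with earlier results known. Of 23 genes of IgE receptor signalling, 11 rose and 9 fell in 36N cells with TMZ, with a median log2 fold change of -0.17, against 0.06 over all genes; over all genes 36.3% rose and 33.5% fell. Adaptors and a kinase were among the genes that rose. Lat, the adaptor that gathers signalling proteins below the receptor, rose to 1355 ± 577 normalized counts with TMZ, against 24.3 ± 16.0 untreated (SD, n = 3 each; log2 fold change 5.83, limma adjusted p = 3.7e-05). The Src family kinase gene Fyn rose to 1604 ± 388, against 52.9 ± 12.9 (log2 fold change 4.89). Lat2, a second adaptor of mast cells, rose to 8160 ± 4777, against 727 ± 85.4 (3.34).

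Of 18 genes of the ST2 and IL-18 receptor list that were tested, 5 rose and 3 fell (median log2 fold change -0.04). Il18rap, the accessory chain of the IL-18 receptor and the neighbour of Il18r1, rose to 3867 ± 877 normalized counts with TMZ, against 361 ± 104 untreated (log2 fold change 3.43, limma adjusted p = 1.6e-05). Il1rap, the accessory chain of ST2, was at 318 ± 90.2 with TMZ and 332 ± 26.8 untreated, so that it did not follow Il1rl1. Il1rap and Il1r1 were chosen after their values were seen. Il1r1, in the same run of genes on chromosome 1, was at 39.4 ± 24.8 with TMZ and 54.9 ± 25 untreated. Further down the pathway Sigirr, an inhibitory receptor, rose by 1.69, while Tab2 and Traf6, which link these receptors to NF-kB, fell by 2.34 and 1.48 on the log2 scale.

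Of 9 tested receptors that use the gamma chain, 5 rose and 2 fell (median log2 fold change 1.53). The high-affinity IgG receptor gene Fcgr1 rose to 446 ± 178 normalized counts with TMZ, against 3.16 ± 2.19 untreated (log2 fold change 6.81). Fcgr1 passed the filter on low values through the TMZ libraries alone, so it had to differ. The lectin gene Clec4n rose to 541 ± 127, against 20.7 ± 7.66 (4.68). Clec4d rose by 3.07, and Pira2 fell by 2.19 on the log2 scale. Of 4 genes of the CD200 receptor list, 2 rose and 0 fell (median 2.28). These were the inhibitory receptor gene Cd200r1, at 2380 ± 696 with TMZ against 191 ± 107 untreated (3.75), and Cd200r4, at 3324 ± 1638 against 24.6 ± 5.92 (6.94).

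Of 17 other surface genes of basophils and mast cells, 15 rose and 0 fell with TMZ (median log2 fold change 3.22). Kit, the receptor for stem cell factor on mast cells, rose to 13630 ± 3681 normalized counts, against 387 ± 198 untreated (log2 fold change 5.25, limma adjusted p = 2.4e-05), and Cd63, whose protein reaches the surface on degranulation, to 26387 ± 14293, against 689 ± 239 (5.18). Ptger3, a prostaglandin E2 receptor, rose to 1692 ± 665, against 3.30 ± 2.36 (8.68). Hrh4, the histamine H4 receptor, averaged 191 ± 70.9 with TMZ and was listed at 0 in the untreated libraries. Ptger3 and Hrh4 passed the filter through the TMZ libraries alone, so they had to differ.

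Of 15 transcription factor genes of these lineages, 7 rose and 5 fell (median log2 fold change 0.35). Gata2 rose to 9977 to 16729 normalized counts with TMZ, against 248 to 466 untreated (log2 fold change 5.37, limma adjusted p = 3.9e-06). Gata1 rose to 724 to 1117, against 0 to 48.5 (7.64), Gfi1b to 1512 ± 390, against 17.3 ± 5.21 (6.37), and Ikzf2 to 1322 ± 307, against 56.7 ± 51.3 (4.90). Gata1 would not have passed the filter without the TMZ libraries, so its change carries no test. The windows with GATA letters shown above belong to 4 of the 6 genes, and Gata2 and Gata1 were higher in the same libraries; no binding was measured.

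**Figure D2:**
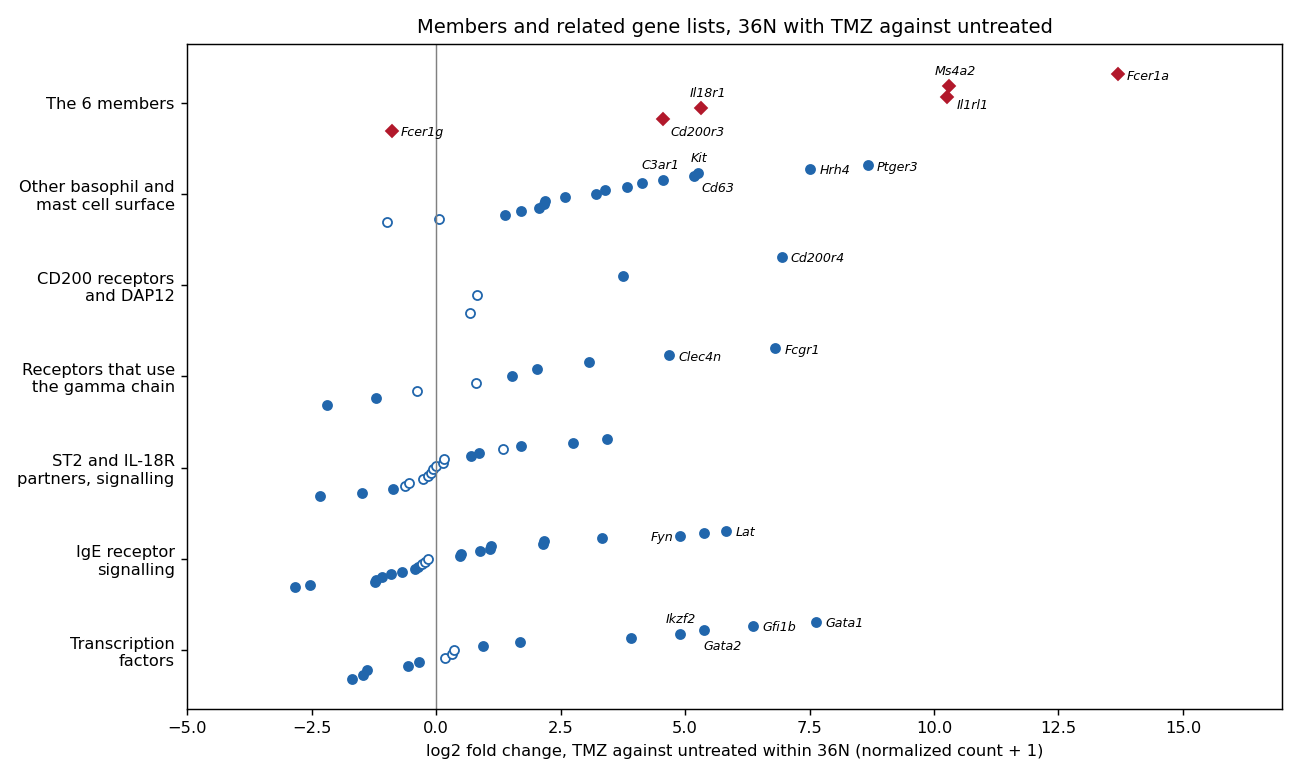
Log2 fold change of 36N with TMZ against untreated 36N on the log2(value + 1) scale, with the 6 genes as diamonds, which carry no test, and related lists as circles; filled circles passed an adjusted p of 0.05 and open ones did not. The surface list lies almost wholly to the right of 0, while the IgE receptor signalling list has 11 genes higher and 9 lower.

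The comparison of 36N with 36S cells, both with TMZ, set the levels of the genotypes under the drug side by side. Whether the change with TMZ differs between the genotypes is the matter of the interaction given further on. The change of 36S cells with TMZ by itself is not given here. No gene of 14246 passed limma-trend at an adjusted p of 0.05 (0% called), and 191 had an unadjusted p under 0.05 (1.34%), none of them among the 6. Each of the 6 genes overlapped between the genotypes, where 4.76% of all genes did not overlap.

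Fcer1a was at 9761, 28679 and 31424 normalized counts in 36N libraries 4, 5 and 6 with TMZ, against 8931, 35104 and 26560 in 36S libraries 1, 2 and 3 with TMZ. The log2 fold change was 0.03 with a 95% interval from -1.38 to 1.44, which allows a level up to 2.71 times higher in 36N. In each genotype the lowest library stood well apart from the other two. Ms4a2 was at 14018, 29241 and 29673 in 36N with TMZ, against 14353, 40391 and 26981 in 36S with TMZ (log2 fold change -0.12, 95% interval -1.14 to 0.90). Fcer1g was at 4361, 4418 and 10271 in 36N with TMZ, against 3156, 5014 and 7423 in 36S with TMZ (0.25, 95% interval -0.71 to 1.22). All 3 chains were thus lowest in the same libraries, 36N library 4 and 36S library 1, and the gamma chain was nearly as low in 36N library 5.

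Il1rl1 was at 15959, 29148 and 27468 normalized counts in 36N with TMZ, against 20629, 31167 and 16805 in 36S with TMZ (log2 fold change 0.08, 95% interval -0.66 to 0.83). Il18r1 was at 635, 842 and 1323 in 36N with TMZ, against 618, 887 and 898 in 36S with TMZ (0.17, 95% interval -0.51 to 0.86). Cd200r3 was at 7427, 12820 and 21050 in 36N with TMZ, against 7223, 14374 and 15928 in 36S with TMZ (0.09, 95% interval -0.91 to 1.10). The adjusted p was 0.9998 for all 6 genes, which does not show that the levels were alike. The narrowest intervals, those of Il1rl1 and Il18r1, still allow levels up to 1.77 and 1.82 times higher in 36N. Each of the 6 fold changes changed sign when some single library was left out.

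Basophil markers spread as widely within each genotype, with sums of 42028 to 179541 normalized counts in 36N and 36632 to 186976 in 36S, both with TMZ. The mast cell markers summed to 89734 to 197536 in 36N and 83673 to 164253 in 36S. No gene of the 6 related lists passed in this comparison. The lowest p-values in the lists belonged to genes such as Bhlhe40, at 1796 ± 147 in 36N and 1146 ± 299 in 36S with TMZ, and Ms4a3, at 3303 ± 180 and 4159 ± 427 (adjusted p = 0.9998 for both).

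Per kb of exon, the order of the genes in the libraries with TMZ was similar in both genotypes. The scaling behind the deposited values is not stated and differed from gene to gene between tables, so levels per kb and ratios between genes hold within this table only. Fcer1a was the highest of the 6 genes in all 6 libraries, at 23335 ± 11818 normalized counts per kb in 36N and 23579 ± 13373 in 36S (SD, n = 3 each). It ranked between place 25 and 101 of 18683 genes in the 36N libraries and between 21 and 96 in the 36S libraries. Ms4a2 had 8642 ± 3170 per kb in 36N and 9684 ± 4629 in 36S, and Fcer1g had 7265 ± 3886 in 36N and 5947 ± 2448 in 36S. The spreads of these neighbours over libraries overlapped, but within libraries the ratio of Fcer1g to Ms4a2 was 0.708, 0.400 and 0.885 in 36S libraries 1, 2 and 3, so that Ms4a2 was above Fcer1g in each. In 36N it was 0.486 in library 5 and 1.11 in library 6, with both genes nearly level in library 4. Il1rl1 had 3509 ± 1041 in 36N and 3317 ± 1079 in 36S, and Cd200r3 had 2300 ± 1146 in 36N and 2090 ± 776 in 36S. Their spreads overlapped too, while within libraries Il1rl1 was the higher of the pair in all but 36S library 3, with ratios from 1.13 to 1.97 in 36N and from 0.916 to 2.48 in 36S. Il18r1 was last in all 6 libraries, at 194 ± 73.3 in 36N and 166 ± 33.0 in 36S.

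The gene length used affects this order. Within 36N exposed to TMZ, in the table that also holds the untreated 36N libraries, Ms4a2 stood at 4977 and Fcer1g at 4767 normalized counts per kb when all exons were counted. With the longest coding transcript they stood at 5856 and 6100, and Cd200r3 moved above Il1rl1, at 3190 and 3004. The places of Fcer1a as highest and Il18r1 as lowest were the same by both lengths.

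The receptor chains were not in a fixed proportion. Per kb, the ratio of Ms4a2 to Fcer1a was 0.509, 0.362 and 0.335 in 36N libraries 4, 5 and 6, and 0.570, 0.408 and 0.360 in 36S libraries 1, 2 and 3, all with TMZ. The ratio of Fcer1g to Fcer1a was 0.510, 0.176 and 0.373 in 36N, and 0.403, 0.163 and 0.319 in 36S. Both ratios were highest in 36N library 4 and 36S library 1, which held the least Fcer1a, the denominator of both. The gamma chain ratio was lowest in 36N library 5 and 36S library 2. In the table with the untreated libraries, the ratio of Ms4a2 to Fcer1a in 36N library 4 was 0.456. In untreated 36N cells the gamma chain stood at 8098 ± 573 per kb, between place 65 and 88 of 17481 genes, with Fcer1a listed at 0.

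**Figure D3:**
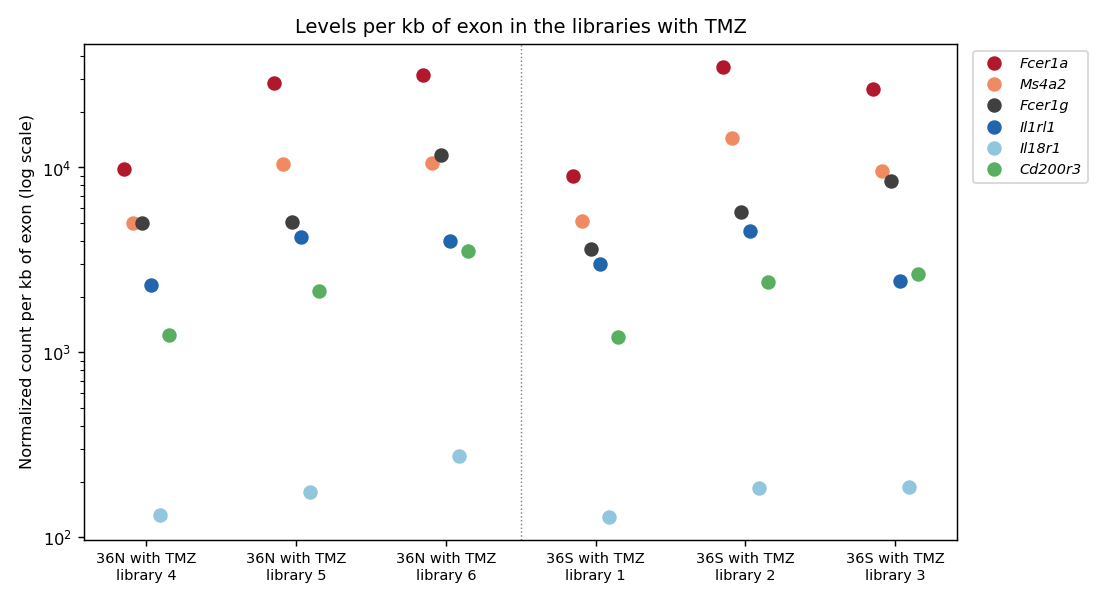
Normalized count per kb of exon on a log axis for each gene in the 6 libraries with TMZ, 36N left and 36S right of the dotted line, with 1 point per gene and library. Fcer1a is the highest and Il18r1 the lowest gene in every library, and Fcer1g changes place with Ms4a2 between libraries.

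In the untreated marrow, 36N and 36S cells were compared to see what the variant changes without the drug. None of the 3 genes that could be tested passed limma-trend, where 4.56% of 13137 genes did; 0 of the 3 had an unadjusted p under 0.05, where 20.4% of all genes had. Ms4a2 was at 11.8, 14.8 and 1.62 normalized counts in 36N libraries 4, 5 and 6, against 48.5, 15.5 and 13.8 in 36S libraries 1, 2 and 3 (log2 fold change -1.51, SE 0.76, limma adjusted p = 0.30). These low values overlapped, and the size of the difference rested on single libraries: it was -0.69 without 36N library 6, -0.95 without 36S library 1 and -0.40 with library weights. Fcer1g was at 4669, 4503 and 5126 in 36N, against 4380, 3648 and 4247 in 36S (0.22, SE 0.11, adjusted p = 0.30). Its groups did not overlap, as was the case for 26.9% of all genes. Cd200r3 was at 344, 440 and 556 in 36N, against 196, 395 and 388 in 36S (0.49, SE 0.28, adjusted p = 0.36).

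Il1rl1 and Il18r1 were under the filter in all untreated comparisons. Il1rl1 was at 5.42, 8.73 and 9.15 normalized counts in 36N and 5.32, 2.40 and 7.10 in 36S. Il18r1 was at 4.21, 13.4 and 5.90 in 36N and 28.3, 4.55 and 2.12 in 36S. In 36S library 1, which was highest in Ms4a2 and Il18r1, the summed neutrophil markers were also at 56657, against 3357 and 7266 in the other two 36S libraries. The part of that library's makeup in its values was not tested.

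Of the related lists, 12 other surface genes were tested in untreated 36N against 36S, and 2 rose and 3 fell (median log2 fold change 0.11, against -0.01 over all genes, of which 2.55% rose and 2.01% fell). Kit fell to 343 ± 176 normalized counts in 36N, against 1097 ± 178 in 36S (log2 fold change -1.81, limma adjusted p = 0.023), Cd63 fell to 425 ± 148, against 1385 ± 426 (-1.72), and Ms4a3 fell to 299 ± 113, against 1133 ± 399 (-1.93). Itgb7, an integrin chain of mast cell progenitors, rose to 1744 ± 269, against 626 ± 222 (1.52). Of 22 genes of IgE receptor signalling, 1 rose, the adaptor gene Gab2, at 1180 ± 60.8 in 36N against 756 ± 54.8 in 36S (0.64, adjusted p = 0.012). Of 8 receptors that use the gamma chain, 1 fell, Fcgr4 (-0.99, adjusted p = 0.046). No tested gene of the ST2 and IL-18 receptor list (17) or of the CD200 receptor list (4) passed. Of 13 transcription factor genes, 2 rose, among them Nfil3 (1.22), and 1 fell, Bhlhe40 (-1.06). Cell type markers moved with these lists. Leukemic progenitor markers (4 genes) summed to 31186 to 37223 in untreated 36N, against 55276 to 126770 in untreated 36S. Most of that sum was Mpo and Elane, the 2 of the 4 that fell. Mpo was at 17012 ± 2063 in 36N against 51882 ± 25504 in 36S (log2 fold change -1.48). Elane was at 14361 ± 683 against 35189 ± 10472 (-1.25). Hoxa9 and Meis1 did not pass, so the sum says little of them. Mast cell markers (4 listed of 9 genes, Kit among them) summed to 272 to 933 in 36N, against 1220 to 2069 in 36S. The part of these cells in the list changes was not tested.

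In KD cells, which express GFI1 at a low level, the listed values of Ms4a2 were near 0 and below those of 36S cells. Those of Fcer1g were above the 36S values. This contrast was among the results known when the genes were chosen, so the values of the 6 genes are given without a test. Ms4a2 was at 1.83, 0.777 and 2.12 normalized counts in KD libraries 7, 8 and 9, against 48.5, 15.5 and 13.8 in 36S libraries 1, 2 and 3 (log2 fold change -3.20, SE 0.66). It passed the filter through the 36S libraries alone, so it had to differ, and it fell out of the fit when any 36S library was left out. Since the read depth is unknown, values this near 0 give no order of the genotypes. Fcer1g was at 7676, 5375 and 8797 in KD, against 4380, 3648 and 4247 in 36S (0.81, SE 0.19). Neither gene overlapped between the groups, as was the case for 31.5% of all genes. These 2 genes of the 3 in the fit were past an adjusted p of 0.05, where 11.5% of 13109 genes were, and nothing is read from that count. The call of Fcer1g was lost without 36S library 2 or 3 and without KD library 7 or 9.

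Cd200r3 was at 269, 632 and 294 normalized counts in KD, against 196, 395 and 388 in 36S (log2 fold change 0.24, SE 0.36), and the groups overlapped. The low genes Il1rl1, at 3.79, 2.39 and 7.51 in KD, and Il18r1, at 4.03, 4.74 and 5.60 in KD, lay within or near the range of 36S. Without 36S library 1 the sign of the Cd200r3 value turned (log2 fold change -0.09), and without KD library 8 it did so as well (-0.14).

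Monocyte markers moved with the gamma chain. Their sum was 82162 to 112856 normalized counts in KD, against 45443 to 50121 in 36S, and 5 of 6 rose. T and NK cell markers summed to 269 to 1028 in KD, against at most 240 in 36S, and eosinophil markers to 1055 to 2933, against 256 to 420. Leukemic progenitor markers summed to 25189 to 29858 in KD, against 55276 to 126770 in 36S. Most of that sum was again Mpo (log2 fold change -1.74) and Elane (-1.77), the 2 of the 4 genes that fell. Basophil markers summed to 47.7 to 69.4 in KD and 67.7 to 146 in 36S, with Prss34 and Ptgdr2 under 10 in every KD library. Mast cell markers (4 listed of 9 genes) summed to 1835 to 2171 in KD, against 1220 to 2069 in 36S. Of 3 tested, Cpa3 rose to 1324 ± 117, against 215 ± 88.7 (log2 fold change 2.69), while Kit fell (-1.55). The part of these cells in the gamma chain difference was not tested.

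Of 8 tested receptors that use the gamma chain, 3 rose and 0 fell in KD against 36S (median log2 fold change 0.59, against -0.01 over all genes, of which 6.61% rose and 4.86% fell). Fcgr3, an IgG receptor, rose to 3488 ± 670 normalized counts in KD, against 2085 ± 306 in 36S (0.73, limma adjusted p = 0.027), and Lilra6 to 1852 ± 165, against 592 ± 261 (1.74). Of 23 genes of IgE receptor signalling, 4 rose and 0 fell, among them the kinase genes Lyn (0.56, adjusted p = 0.029) and Prkcb (0.63) and the adaptor gene Lat2 (0.58). Of 17 genes of the ST2 and IL-18 receptor list, 1 rose and 4 fell. The decoy receptor gene Il1r2 fell to 10.5 ± 3.29, against 85.4 ± 40.9 (-2.84), Il1rl2 to 40.4 ± 2.37, against 141 ± 2.45 (-1.78), Il1rap to 140 ± 15.5, against 294 ± 51.4 (-1.05), and Il18rap to 113 ± 29.1, against 229 ± 51.1 (-1.02, adjusted p = 0.027).

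Further lists held changes in both directions. Of 4 CD200 receptor genes 2 rose, among them Cd200r1, at 137 ± 12 normalized counts in KD against 48.5 ± 10.4 in the 36S controls (log2 fold change 1.5, limma adjusted p = 0.0049). Of 13 other surface genes, 4 rose and 2 fell: Itgb7 rose to 4114 ± 639, against 626 ± 222 (2.76), and the adenosine receptor gene Adora3 to 379 ± 60.8, against 91.5 ± 21.9 (2.05), while Kit fell to 383 ± 123, against 1097 ± 178 (-1.55), and Ms4a3 to 62.2 ± 3.22, against 1133 ± 399 (-4.10). Of 13 transcription factor genes, 4 rose and 1 fell. Ikzf2 rose to 494 ± 104 in KD, against 7.29 ± 9.99 in 36S (6.69), Gfi1b to 57.8 ± 10.9, against 8.25 ± 3.56 (2.73), and Gata2 to 1086 ± 124, against 469 ± 65.6 (1.21). Ikzf2 and Gfi1b would not have passed the filter without the KD libraries, so their changes carry no test. Bhlhe40 fell to 78.3 ± 5.12, against 157 ± 44.9 (-0.96).

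KD and 36N cells share the 36S libraries as controls and were also set against each other. No gene of the 6 passed limma-trend, where 3.24% of 13118 genes did, and only Fcer1g and Cd200r3 could be tested. Fcer1g alone had an unadjusted p under 0.05, as 19% of all genes had. Fcer1g averaged 7283 ± 1744 normalized counts in KD and 4766 ± 323 in 36N (SD, n = 3 each; log2 fold change 0.58, SE 0.19, limma adjusted p = 0.13). Its groups did not overlap, as for 22.6% of all genes, and the call was made without KD library 8 (0.79). Cd200r3 averaged 398 ± 203 in KD and 446 ± 106 in 36N (-0.25, SE 0.31, adjusted p = 0.70). Among the partners, Fcgr3 rose in KD against 36N, at 3488 ± 670 against 2026 ± 67 (0.77, adjusted p = 0.030), Cd200r4 rose by 1.70 and Gata2 by 1.89, while Il1rl2 fell by 1.48 on the log2 scale. Ikzf2 rose by 4.79, from a low 22.1 ± 20.0 normalized counts in 36N. Of 13 other surface genes, 2 rose (Itgb7 by 1.24, Cd63 by 1.21) and 1 fell, Ms4a3 (-2.18). Of 23 genes of IgE receptor signalling, 1 rose, Prkcb (1.23). Of the markers tested, 2 of 6 monocyte, 3 of 5 eosinophil and 2 of 3 mast cell genes rose, and 4 of 6 neutrophil genes fell. The part of these cells was not tested.

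The interaction of genotype and TMZ, taken over 12 libraries from the genotype differences within 2 tables, was past the threshold for 0.281% of 14584 genes and for none of the 5 genes of this set that could be fitted. An unadjusted p under 0.05 was found for 6.95% of genes and for 0 of the 5. The estimate was 1.39 for Ms4a2 (95% interval -0.62 to 3.39), 0.03 for Fcer1g (-0.98 to 1.03) and -0.54 for Il1rl1 (-1.61 to 0.53). It was 0.17 for Il18r1 (-1.88 to 2.21) and -0.40 for Cd200r3 (-1.62 to 0.82), all on the log2 scale with adjusted p from 0.88 to 0.998. The Ms4a2 estimate joins values near 0 without TMZ to values of 14018 and more with it, and it was 0.57 without untreated 36N library 6. The estimates of Il1rl1 and Il18r1 do the same: Il1rl1 was under 10 in every untreated library and passed the filter through the TMZ libraries alone, so these values carry no reading on how the genotypes differ in response.

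**Figure D4:**
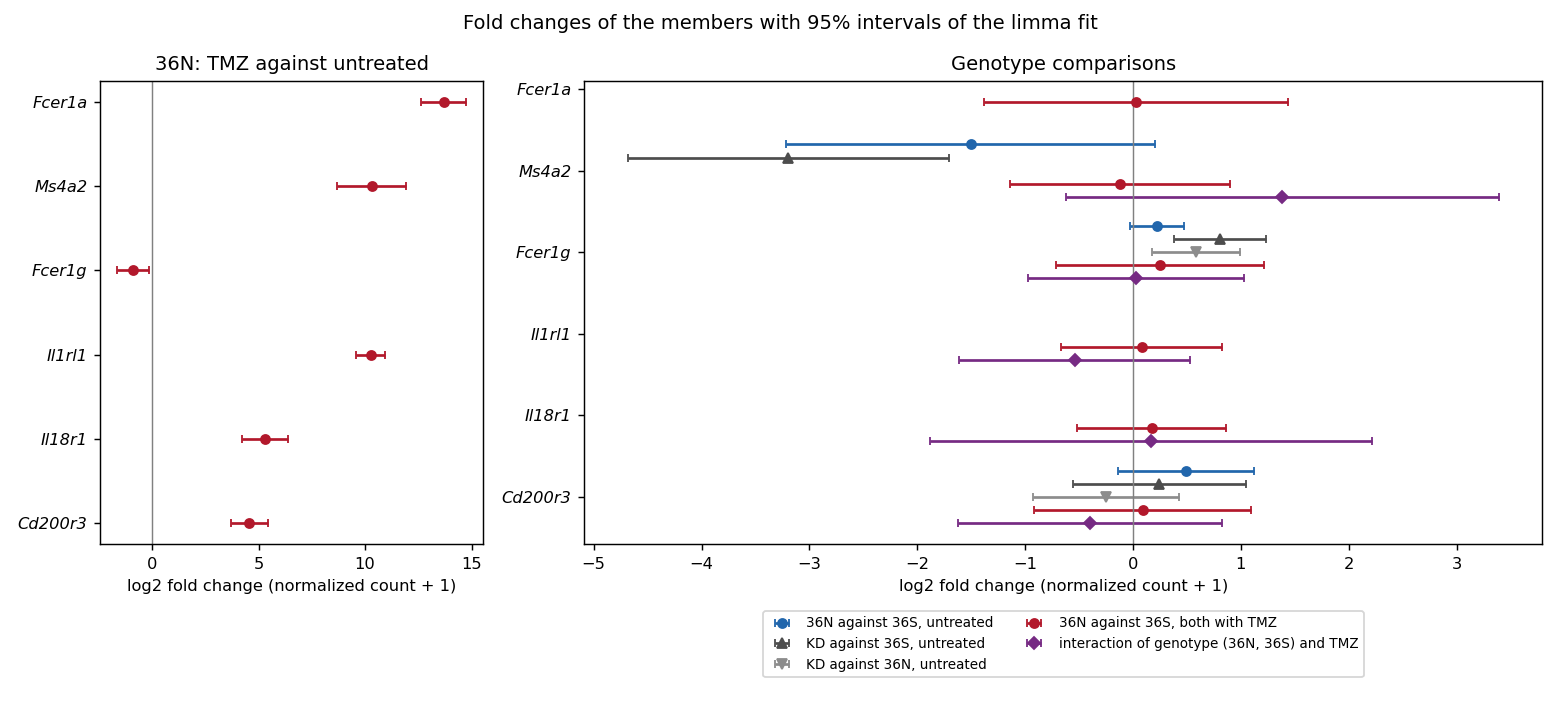
Log2 fold change of each gene on the log2(value + 1) scale with the 95% interval of the limma fit; left, 36N with TMZ against untreated 36N, where the value of Fcer1a depends on the added constant; right, the genotype comparisons and the interaction. In the left panel 5 genes lie far to the right of 0 and Fcer1g to the left; in the right panel the 36N against 36S intervals with TMZ all include 0; the KD against 36S values were known when the genes were chosen and carry no test.

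The genes most like each of the 5 genes listed in untreated cells were sought by Pearson correlation of log2(value + 1) over the 15 libraries, centred within each table, among 11702 genes. The centring, within the untreated and within the TMZ libraries, takes out the mean difference between these conditions. The values are a description, since libraries of a group share their genotype, and the untreated levels of Ms4a2, Il1rl1 and Il18r1 are near 0. For Fcer1g they were Alox5ap (r = 0.97), whose product serves leukotriene synthesis, Emp3 (0.96) and Fcgr3 (0.96), the IgG receptor that uses the gamma chain. For Cd200r3 they were Rbm39 (0.95), the kinase gene Tec (0.94) and Tasor (0.92). For Ms4a2 they were Lpcat2 (0.94), Ints5 and Pabpc4 (0.92 each). The values were lower for Il1rl1, led by Diablo (0.86), and for Il18r1, led by Hikeshi (0.78). Fcer1g thus had a gene of its own receptor family, Fcgr3, among its leading 3. The genes described here were left out of the candidates, so they could not be matched to each other. No contrast between Fcer1g and the other genes is therefore read from these values.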

How the data were processed

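RNA of total leukemic marrow was sequenced after poly(A) selection, per the labels' protocols. The authors deposited a normalized signal per gene, that is, normalized counts in 4 tables, made with Salmon and DESeq2 on mm10 per the submitters' processing notes, which give no versions or roles. The read depth behind the values is unknown, so no counting intervals are given. Values were taken as log2(value + 1). Genes that reached 10 in 3 or more of the compared libraries were fitted with limma-trend (limma 3.58.1, R 4.3.3), with Benjamini-Hochberg adjustment over all genes tested and a threshold of 0.05. The fit was tested on simulated counts with 1 spread setting for all genes and changes only in genes with a mean of at least 50. That test says nothing of genes near 0 or of libraries that differ widely within a group. The 36S columns of both untreated tables are identical, so KD and 36N were compared across them. Levels per kb use the exons of GENCODE M21. The 6 genes and the lists were chosen with earlier results of these data known. Of each list the text names up to 4 genes, those with the largest change past the threshold and a mean of at least 50 in 1 group, or, where none passed, some of the 2 with the lowest p. A gene that the rule takes is not reported here. Other settings tried were a pseudocount of 0.5 or 5, the filter dropped or set to 50, quantile normalization, equal totals, no or a robust trend, library weights, 1 fit of all untreated libraries, a replicate block, and each library left out in turn. Another gene length was added after the data were seen.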

Additional observations from a re-analysis of the deposited data

How the results depend on the processing

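Each fold change of a gene was refitted under each setting, which gave 411 values. Of these, 369 had the same direction and side of the threshold as reported, 28 changed sign, 11 lost the call and 3 gained it. Settings that took a gene out of the fit are not among the 411. Genes that were not called and stayed so count as the same, so the 369 do not measure the stability of the calls. With library weights 1 gene of the 6 was past the threshold for untreated 36N against 36S (Fcer1g, log2 fold change 0.27) and 1 for KD against 36N; for KD against 36S the count was 1 instead of 2 with a filter of 50, which removed Ms4a2, and 1 without a trend, and the Cd200r3 value was -0.25 with library weights. With single libraries left out, the count ranged from 0 to 2 for KD against 36S, from 0 to 1 for KD against 36N and from 4 to 5 for TMZ in 36N, where without a TMZ library some genes no longer pass the filter. In the same way Cd200r3 in KD against 36S ranged from -0.14 to 0.47 in log2 fold change. With TMZ, 36N against 36S ranged from -0.56 to 0.57 for Fcer1a, -0.52 to 0.24 for Ms4a2, -0.16 to 0.55 for Fcer1g, -0.12 to 0.36 for Il1rl1, -0.11 to 0.42 for Il18r1 and -0.28 to 0.47 for Cd200r3. The interaction ranged from -0.38 to 0.33 for Fcer1g and -0.77 to 0.84 for Il18r1. Library weights gave -0.14 for Il1rl1 in 36N against 36S with TMZ and -0.74 for Il18r1 in the interaction. The cause of these shifts was not tested. The replicate block by library number for TMZ in 36N left the count at 6; the correlations of same-numbered libraries (0.019, 0.037 and 0.086) did not reach the level at which the numbers were taken to pair the samples. With unknown read depth, values near 0 in untreated cells, among them Il1rl1 and Il18r1, cannot be ordered between genotypes.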
